A study of Homo sapiens with 3 samples.

Results

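The genes that set the pace of the G1 phase of the cell cycle were examined in HCC1599, a human cell line grown from a triple-negative breast cancer. They were the D-type cyclin genes CCND1, CCND2 and CCND3, the E-type cyclin gene CCNE1, the kinase genes CDK4 and CDK6, the retinoblastoma gene RB1 and the inhibitor genes CDKN1A, CDKN1B and CDKN2A. The 10 genes were taken by name, out of 19974 protein-coding genes on chromosomes 1 to 22 and X, and every one was found in the gene table. Chromatin had been immunoprecipitated with an antibody to acetylated lysine 27 of histone H3 (H3K27ac), a mark of active promoters and enhancers, or to trimethylated lysine 4 of histone H3 (H3K4me3), a mark of promoters, and sequenced. The H3K27ac antibody came from Active Motif and the H3K4me3 antibody from Cell Signaling Technology, and the cells had been cross-linked before their chromatin was cut. The series' labels describe cells positive for a MARCO transcript called MARCO-TST, and they give no treatment. Each mark had 1 library and 1 deposited peak list called against an input, and the input itself was not analysed here. Differences between repeat libraries are therefore unknown, no p-value is given, and a place without a peak is a place where none was called at a read depth that is not known here.

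Cyclin D binds CDK4 or CDK6, and the complex phosphorylates the RB1 protein, which otherwise holds back the E2F transcription factors. Cyclin E with CDK2 continues that phosphorylation as cells enter S phase. The product of CDKN1A, p21, and that of CDKN1B, p27, bind cyclin and kinase complexes of several kinds. CDKN2A encodes p16INK4A, which binds CDK4 and CDK6, and, from another first exon, ARF, which restrains MDM2 and so stabilises p53. In breast epithelium cyclin D1 is the best known of these proteins, because mammary gland growth and many breast tumours depend on it.

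In brief, 8 of the 10 genes carried both marks within 1 kb of an annotated end (80%, exact 95% interval 44.4 to 97.5), against 57.6% of all protein-coding genes. H3K27ac counted alone was at an end of 8 of the 10 (60.7% of all genes) and H3K4me3 at an end of 9 (69.5%). The interval, which covers counting error over genes only, includes the background of 57.6%. CCND2 had H3K4me3 only, as had 11.9% of all genes, and CDKN1A had neither mark at its annotated ends, as had 27.3%. None had H3K27ac only, against 3.16% of all genes. CDK6 stood apart by the number of H3K27ac peaks inside the gene, CCND2 by how little of either mark surrounded it, and CDKN1A by strong H3K4me3 at its listed start with no H3K27ac peak there.

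The lists as a whole bear on these values in a few ways. After 1 H3K27ac peak and 2 H3K4me3 peaks elsewhere were set aside, they held 72894 H3K27ac peaks and 32043 H3K4me3 peaks. The authors' score of a peak, which has no stated unit, ran from 30 to 3233 in both lists. It reached 3100 or above, mostly 3100 itself, in 3.71% of H3K27ac peaks and 33.9% of H3K4me3 peaks, and so does not rank the strongest H3K4me3 peaks. The cell type was checked on fixed markers: all 5 epithelial genes (EPCAM, CDH1, KRT8, KRT18 and KRT5) had both marks at an end, and all 4 lymphocyte, 3 macrophage, 3 fibroblast and 3 endothelial genes had neither.

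The marks were first set against the starts of transcription that RefSeq lists in its promoter table (GRCh38.p14, the same build family as the hg38 of the peak lists). Of the 10 genes 8 matched, with 12 starts, and CCND1 and CCND2 had no entry. Both marks lay within 1 kb of 9 of the 12 starts, against 56.6% of the starts of all protein-coding genes in the table. H3K4me3 alone lay at 2 starts (12.3% of all starts) and neither mark at 1 (28.8%). The starts with fewer marks were the CDKN1A start, the third start of CCND3 and a start 172699 bp into RB1. The 250 bases before each of them are given here to set the sequence beside the marks, with those of CDKN1B as an example that had both. Capitals mark the word GGGCGG or its reverse complement, the core that the factor SP1 binds.
CDKN1A: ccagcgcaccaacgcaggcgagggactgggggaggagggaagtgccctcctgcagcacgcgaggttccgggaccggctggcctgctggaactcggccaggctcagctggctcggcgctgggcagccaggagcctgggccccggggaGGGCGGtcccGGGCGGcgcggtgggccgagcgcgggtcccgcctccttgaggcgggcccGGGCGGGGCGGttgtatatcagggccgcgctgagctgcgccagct
CCND3: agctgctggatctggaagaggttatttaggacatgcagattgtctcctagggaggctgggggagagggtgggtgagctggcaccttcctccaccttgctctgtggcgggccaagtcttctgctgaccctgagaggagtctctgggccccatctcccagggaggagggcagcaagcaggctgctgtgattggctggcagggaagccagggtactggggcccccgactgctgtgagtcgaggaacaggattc
RB1: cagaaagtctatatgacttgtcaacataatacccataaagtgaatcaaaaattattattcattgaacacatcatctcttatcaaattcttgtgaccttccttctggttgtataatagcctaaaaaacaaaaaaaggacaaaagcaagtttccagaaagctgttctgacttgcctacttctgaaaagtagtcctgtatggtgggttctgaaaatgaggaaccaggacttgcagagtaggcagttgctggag
CDKN1B: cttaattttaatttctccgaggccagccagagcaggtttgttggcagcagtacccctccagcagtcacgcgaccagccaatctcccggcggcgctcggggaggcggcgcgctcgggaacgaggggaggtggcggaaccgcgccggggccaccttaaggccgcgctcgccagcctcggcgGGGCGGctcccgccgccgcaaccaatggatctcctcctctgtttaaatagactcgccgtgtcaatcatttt
They lie at chr6:36678464-36678713 (plus strand), chr6:41939206-41939455 (minus strand), chr13:48476200-48476449 (plus strand) and chr12:12717118-12717367 (plus strand).

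The sequences differed most in their CG dinucleotides. CDKN1A had 27 in 250 bases and CDKN1B 27, while the third CCND3 start had 3 and the internal RB1 start had 0. The median over 34961 promoters was 11. G and C made up 76.4% of the CDKN1A bases, 64.4% of those of CDKN1B, 61.2% at the CCND3 start and 36.8% at the RB1 start. The CDKN1A start thus had the base composition of a CpG-rich promoter, like CDKN1B, and H3K4me3 like it, but not its H3K27ac.

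Words of 5 factors or elements were searched on both strands in the 250 bases before each of the 12 starts. For RB1 this was only the start inside the gene, not its marked end, and CCND1 and CCND2 were not searched. The SP1 word GGGCGG was present at 8 starts, of CCND3, CCNE1, CDK4, CDK6, CDKN1A, CDKN1B and CDKN2A, and in 42.7% of all promoters. CCNE1 held 7 matches and CDKN1A 4. The E2F words TTTCCCGC, TTTGGCGC, TTTCGCGC and TTTGCCGC were found at none of the 12 and in 2.80% of all promoters. The RBPJ word TGGGAA (20.8% of all promoters), the cyclic AMP response word TGACGTCA (1.65%) and the word TATAAA (10.7%) were also found at none of them. Matches of different words did not overlap, since only GGGCGG was matched, and a missing word says only that these letters are not in this window.

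**Figure D1:**
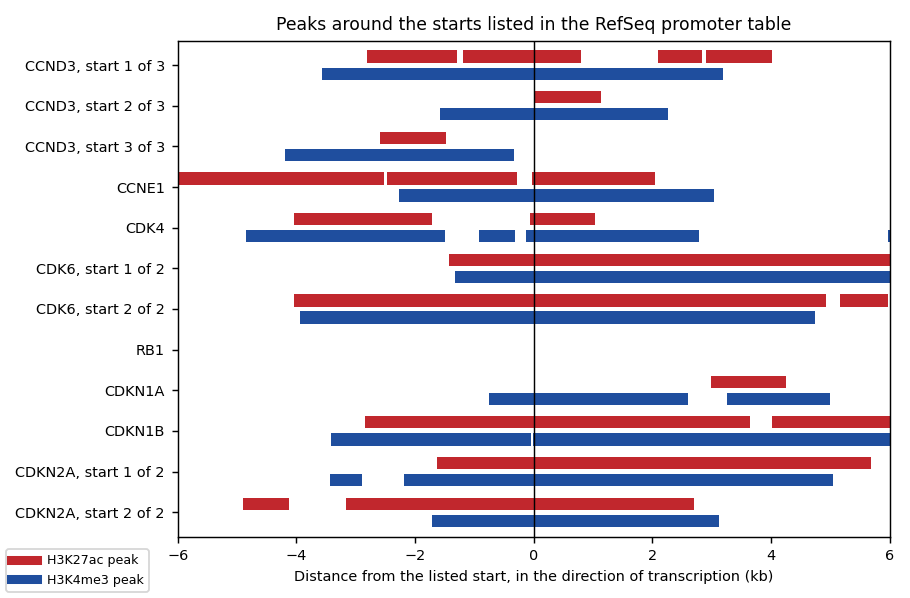
Deposited H3K27ac (red) and H3K4me3 (blue) peaks around the 12 starts listed for 8 of the genes, drawn by distance in kb from the start in the direction of transcription, with starts of a gene numbered from the outermost. Peaks of both marks lie within 1 kb of 9 starts, H3K4me3 alone lies near the CDKN1A start and the third CCND3 start, and no peak lies near the RB1 start, which is 172699 bp inside the gene.

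CCND1, encoding cyclin D1, spans 69641156 to 69654474 of chromosome 11 and lay in wide peaks of both marks at its lower-coordinate end, which from general knowledge is its start. H3K27ac there covered 8133 bp, at 69639590 to 69647722, and H3K4me3 10237 bp, at 69635666 to 69645902, each with a score of 3100. These widths stood at percentiles 96.8 for H3K27ac and 99.0 for H3K4me3 among the protein-coding genes with each mark at an end. A further H3K27ac peak of 3090 bp, with a score of 1968, lay just upstream and wholly on the same H3K4me3 peak. H3K27ac covered 61.9% of the gene and H3K4me3 46.2%. The far end carried weaker peaks of both marks, 2999 bp of H3K27ac with a score of 280.91 and 1949 bp of H3K4me3 with a score of 266.91.

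Away from gene ends CCND1 had little. H3K27ac peaks were called distal where they lay over 2.5 kb from each annotated gene end, noncoding genes included. CCND1 and the 100 kb on each side had only 2 of them, which is percentile 25.4 of all protein-coding genes. The stronger, 2577 bp wide with a score of 519, lay 99611 bp below the gene and the other, with a score of 101, lay 15537 bp above it. The strongest other H3K27ac peak of the window, at 69665281 to 69669812 with a score of 2730, lay at an end of LTO1, the nearest neighbour with marked ends. None of the 8 H3K27ac peaks in the CCND1 window scored under 100.

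CCND2, encoding cyclin D2, spans 4273762 to 4305353 of chromosome 12 and had the fewest peaks of both marks of the 10 genes. No H3K27ac peak lay in the gene, against 71.5% of protein-coding genes with at least 1, and its only H3K4me3 peak, at 4273873 to 4275105, began 111 bp inside the lower-coordinate end, which from general knowledge is its start. That peak covered 1233 bp and scored 101, percentiles 5.07 for width and 2.12 for score among genes with H3K4me3 at an end. In the 100 kb either side there were 4 H3K27ac peaks, 421 to 531 bp wide with scores of 33.6 to 59.3, none of which overlapped H3K4me3. The other H3K4me3 peak of the window, 2379 bp wide with a score of 3100, lay at an end of TIGAR, the nearest neighbour with a marked end. The 3 D-type cyclin genes thus ran from wide peaks with high scores of both marks at CCND1 to a weak H3K4me3 peak alone at CCND2.

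CCND3, encoding cyclin D3, is read toward lower coordinates and spans 41934933 to 42050035 of chromosome 6. Its higher-coordinate end had both marks, in peaks that it shared with TAF8, a general transcription factor subunit gene that begins 489 bp away. H3K27ac formed a peak of 1988 bp with a score of 194.2 and a peak of 1521 bp with a score of 191.77, both on 6761 bp of H3K4me3 with a score of 3100. H3K4me3 was thus wide there (percentile 93.5) while H3K27ac was near the median in width (48.5) and low in score (23.6). The second listed start, 108227 bp from that end, had a narrower pair, 1124 bp of H3K27ac at a score of 90.9, whose edge lay 4 bp downstream of the start, and 3858 bp of H3K4me3 at a score of 3100. The third start lay 334 bp beyond the edge of that H3K4me3 peak and 1476 bp from that H3K27ac peak.

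The strongest H3K27ac near CCND3 was outside the gene. A peak of 9722 bp with a score of 3100, at 42116638 to 42126359, lay 66603 bp above the gene, and only 1345 bp of it overlapped H3K4me3, in a peak with a score of 154. It was the widest H3K27ac peak around any of the 10 genes and lay inside the span of C6orf132, whose higher-coordinate end carried another H3K27ac peak of 5120 bp with a score of 2730. In all, 8 distal H3K27ac peaks were counted for CCND3, 4 of them inside the gene, percentile 75.5 of all protein-coding genes. They include the peak at the second listed start, with a score of 90.9, because starts inside a span were not counted as gene ends. The nearest gene with marked ends on the other side was MED20, a Mediator subunit gene with both marks.

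CCNE1, encoding cyclin E1, spans 29811991 to 29824312 of chromosome 19 and is read toward higher coordinates. Its start lay in 5311 bp of H3K4me3 with a score of 3100 and in a split of H3K27ac. The H3K27ac peak before the start, at 29809516 to 29811706, had a score of 1434, and the peak over the start, at 29811969 to 29814030, had a score of 371, with 262 bp between them. The higher-coordinate end of CCNE1 had neither mark.

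Around CCNE1 the distal H3K27ac peaks were few but wide. There were 3, percentile 36.1 by number, but together they covered 17797 bp, percentile 89.8. Those before the start were 6895 and 4815 bp wide with scores of 261 and 127 and no H3K4me3. The peak of 4815 bp lay 2532 bp from the start, barely past the 2.5 kb limit. With peaks less than 500 bp apart merged, CCNE1 had 2 distal peaks. The one beyond the gene, at 29841050 to 29847136, covered 6087 bp, scored 547 and overlapped an H3K4me3 peak with a score of 3100. Another H3K4me3 peak of 3079 bp, also with a score of 3100, lay 47793 bp beyond the gene away from all gene ends and had no H3K27ac. C19orf12, 96202 bp below CCNE1, was the nearest gene with marked ends.

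CDK4 spans 57747727 to 57752310 of chromosome 12, is read toward lower coordinates and lies among closely packed genes. Its start had 1108 bp of H3K27ac with a score of 179, wholly on 2907 bp of H3K4me3 with a score of 3100. These were narrower than usual, at percentiles 20.5 for H3K27ac and 37.1 for H3K4me3, and the H3K27ac peak was the narrowest of the 8 genes with that mark at an end. The other end of the gene, where TSPAN31 overlaps it, had neither mark within 1 kb. CDK4 was the only one of the 10 genes with fewer H3K27ac than H3K4me3 peaks in its window, 13 against 14, and 9 of the H3K4me3 peaks scored 3100 or above. Distal H3K27ac was limited to 2 peaks with scores of 39.9 and 39.3, percentile 25.4 by number.

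Most H3K27ac around CDK4 lay at the ends of neighbours. MARCHF9, a ubiquitin ligase gene and its nearest neighbour with marked ends above it, had both marks. Below CDK4 the closest marked end was that of TSPAN31. H3K27ac there, 1759 bp from CDK4 with a score of 627, lay wholly on H3K4me3 with a score of 3140. AGAP2, 5566 bp below CDK4, had H3K27ac only. Further off, a peak of 2867 bp with a score of 1785 lay at METTL1 and EEF1AKMT3, and a peak of 3842 bp with a score of 3100 at CTDSP2. A peak of 6220 bp with a score of 1630 lay at an end of AVIL. Of 22 H3K27ac peaks with a score of at least 1000 in these windows, it was 1 of 2 without H3K4me3. The share over all H3K27ac peaks with such scores was not computed. With so many genes close by, peaks in the window cannot be assigned to CDK4.

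CDK6 spans 92604921 to 92836573 of chromosome 7, is read toward lower coordinates and had the most H3K27ac of the 10 genes. At its start both marks were wide and had scores of 3100: H3K27ac was 8972 bp wide (percentile 97.5) and H3K4me3 8689 bp wide (percentile 98.0), and the H3K4me3 peak lay wholly within the H3K27ac peak. Both also lay within 1 kb of an annotated end of CDK6-AS1, an antisense RNA gene. The second listed start, 2614 bp further in, lay in the same peaks. The lower-coordinate end had neither mark.

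Inside the gene 32 H3K27ac peaks and 8 H3K4me3 peaks lay in the span, and they covered 57413 bp and 16717 bp. By number these are percentile 99.2 for H3K27ac and 96.9 for H3K4me3 among the 2471 protein-coding genes that were between 0.5 and 2 times as long. Of the H3K27ac peaks 29 were distal, and with 3 in the flanks CDK6 had 32 distal peaks, percentile 99.8 of all protein-coding genes and 98.7 of those of similar length. Outside the gene its 3 flanking distal peaks stood at percentile 45.7, near the median. Its 25 H3K27ac peaks with scores under 100 make the count of 32 depend on the threshold of the list, and 9 of the 32 distal peaks scored at least 100. The count also depends on how peaks were joined. With peaks less than 500 bp apart merged, CDK6 had 20 distal peaks, and their percentile was not computed.

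The internal H3K27ac of CDK6 was grouped. Distal peaks joined over gaps up to the distance commonly used to stitch super-enhancers formed a group of 10 peaks over 39134 bp in the lower-coordinate part of the gene, a group of 11 peaks over 47257 bp near the middle and a group of 6 peaks over 25228 bp closer to the start. The middle group covered the most sequence, 22630 bp, and held the strongest distal peak of the gene, at 92712514 to 92721903, 9390 bp wide with a score of 2735. H3K4me3 overlapped 3294 bp of that peak, and 4 of the 11 peaks of the group in all. In the lower group the strongest distal peak, of 2827 bp with a score of 959, had no H3K4me3. Peaks of 2965 and 3425 bp beside it, with scores of 1261 and 1386, were not counted as distal because LOC112268009, a noncoding RNA gene, ends nearby, and the second of these had no H3K4me3. The longest stretch of the gene without an H3K27ac peak was 40961 bp, between the lower and the middle group.

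RB1 spans 48303751 to 48481890 of chromosome 13 and, although it is 178140 bp long, carried almost no marks beyond its start. H3K27ac there covered 1917 bp, scored 712 and lay wholly on 3223 bp of H3K4me3 with a score of 3100, close to the medians of all genes (percentiles 46.3 for H3K27ac and 45.3 for H3K4me3). Both peaks also lay at an annotated end of RB1-DT, a divergent noncoding RNA gene 49 bp away. The only other peak in the gene was H3K27ac of 503 bp with a score of 30.2, at the floor of the list. H3K27ac covered 0.934% of the gene, against 24.8% of CDK6, and the number of H3K27ac peaks stood at percentile 27.3 among 3156 genes of similar length. In the flanks RB1 had 3 distal H3K27ac peaks, of which the strongest scored 73.5 and overlapped an H3K4me3 peak with a score of 3100, 50561 bp above the gene. On that side the nearest gene with a marked end was LINC01077, which had H3K27ac only.

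**Figure D2:**
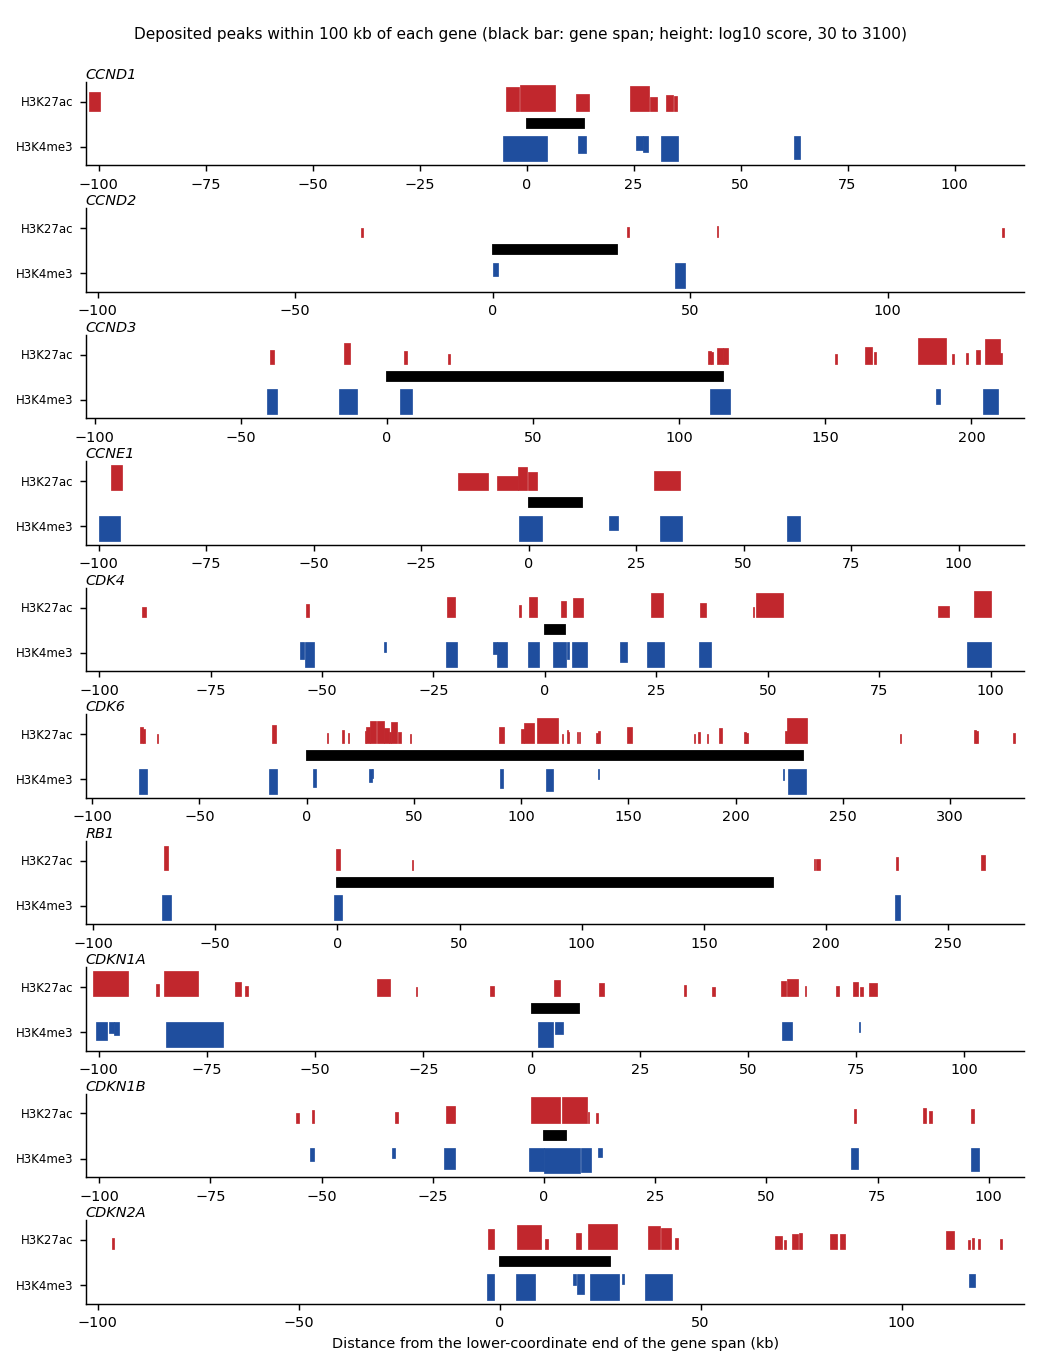
Deposited peaks in each gene and the 100 kb either side, by distance in kb from the lower-coordinate end of the gene span (black bar), with H3K27ac in red above and H3K4me3 in blue below, and box height following log10 of the score between 30 and 3100. CDK6 has 32 H3K27ac peaks in its span, RB1 has 2 in a span of 178140 bp, and CCND2 has none.

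CDKN1A, encoding p21, a well known target of p53, differed from the other inhibitor genes. Its annotated span, 36676463 to 36687332 of chromosome 6, begins 2251 bp before the start that the promoter table lists, and no peak of H3K27ac or H3K4me3 lay within 1 kb of its annotated ends. The listed start at 36678714 lay in 3350 bp of H3K4me3 with a score of 3100, at 36677958 to 36681307, and no H3K27ac peak overlapped that peak. The nearest H3K27ac peak began 2994 bp downstream, at 36681708, covered 1266 bp and scored 191. It overlapped a second, weak H3K4me3 peak with a score of 83.2. Of 71 H3K4me3 peaks around the 10 genes 15 overlapped no H3K27ac, 4 of these scored 3100, and the CDKN1A peak was the only one of the 4 at a listed start of the 10 genes. It also lay within 1 kb of an end of DINOL, a noncoding RNA gene within the CDKN1A span. The H3K4me3 therefore cannot be assigned to either gene.

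The flanks of CDKN1A held 12 distal H3K27ac peaks, percentile 95.7 of all protein-coding genes, and its span 1. Most were weak, and 3 of the 13 scored at least 100. The exception was a peak of 8105 bp with a score of 3100, at 36575040 to 36583144, which began beyond and ended within 100 kb of the gene. Another H3K27ac peak of 7683 bp with a score of 3100, at 36591629 to 36599311, lay at SRSF3, a splicing factor gene, with 13176 bp of H3K4me3. The nearest genes with marked ends, LOC105375038 below and RAB44 above, had H3K27ac only.

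CDKN1B, encoding p27, spans 12717368 to 12722369 of chromosome 12, is read toward higher coordinates and was almost wholly covered by both marks. H3K27ac covered 92.4% of the gene, in peaks of 6478 and 5618 bp that both scored 3100 and stood 380 bp apart. H3K4me3 covered 100%, in a peak of 8084 bp with a score of 3100 that began 20 bp before the start, 33 bp after the end of another peak of 3367 bp with a score of 1427. In width the H3K27ac and H3K4me3 peaks stood at percentiles 94.2 and 97.2. The gene shares these peaks with its neighbours GPR19, a receptor gene with an annotated end 122 bp away, LOC105369663 and APOLD1. Of 7 distal H3K27ac peaks, all in the flanks, 5 overlapped H3K4me3, and the strongest, 1906 bp wide with a score of 241, lay 20094 bp below the gene.

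CDKN2A spans 21967752 to 21995324 of chromosome 9, is read toward lower coordinates and had both marks at both of its listed starts. The outer start at 21995324, from general knowledge that of ARF, lay in 7319 bp of H3K27ac and 7231 bp of H3K4me3, each with a score of 3100. The inner start at 21974857, from general knowledge that of p16INK4A, lay in 5864 bp of H3K27ac with a score of 1901 and 4827 bp of H3K4me3 with a score of 3100. The outer peaks also lay within 1 kb of ends of CDKN2B-AS1 and LOC124902130, noncoding RNA genes, while the inner peaks touched the 1 kb windows of no other gene. H3K27ac covered 49.7% of the gene and H3K4me3 45.7%, and the number of H3K4me3 peaks in the span, 4, stood at percentile 98.4 among 7095 genes of similar length.

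Beyond CDKN2A the marks went on over CDKN2B, which encodes the related inhibitor p15 and had both marks at an end, with 2436 bp of H3K27ac and 6855 bp of H3K4me3. Another H3K27ac peak of 2962 bp lay inside CDKN2B. On the other side a marked end of CDKN2A-AS1 lay closest. H3K27ac of 1407 bp with a score of 736 lay there, 1436 bp below CDKN2A and wholly on H3K4me3 with a score of 3135. MTAP, whose nearer end lay 26637 bp below CDKN2A, had no peak of either mark within 1 kb of that end. Both marks were at its other end, which lies outside the 100 kb. Of 13 distal H3K27ac peaks around CDKN2A 12 were in the flanks, percentile 95.7. A group of 6 over 17491 bp, inside the span of CDKN2B-AS1, had no H3K4me3 and scores up to 230, and the strongest, with a score of 382, lay 83532 bp above CDKN2A.

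Set side by side, the marks at the ends of the genes were wide. The widest H3K27ac peak at an end had a median of 4334.5 bp over the 8 genes with one (1108 to 8972), against 2040 bp over all protein-coding genes with one. For H3K4me3 the median was 6761 bp over 9 genes (1233 to 10237), against 3415 bp. Where peaks less than 500 bp apart were merged, the H3K27ac median of the 8 genes became 8352.5 bp, so that it depends on how peaks were joined. The merged median over all genes was not computed, so the 2040 bp is not its background. By unmerged peaks, CCND1, CDK6, CDKN1B and CDKN2A formed a set with wide H3K27ac and H3K4me3, each above percentile 94 for both. CCND3, CCNE1, CDK4 and RB1 were nearer to the medians or below them in H3K27ac. At CCNE1 and CCND3 the H3K27ac was split into peaks 262 bp and 101 bp apart, so their place also depends on how peaks were joined. Of the 24 peaks at the ends of the genes 14 also lay at the end of another gene, at 6 of the 10 genes, so that width there is not that of 1 gene alone.

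**Figure D3:**
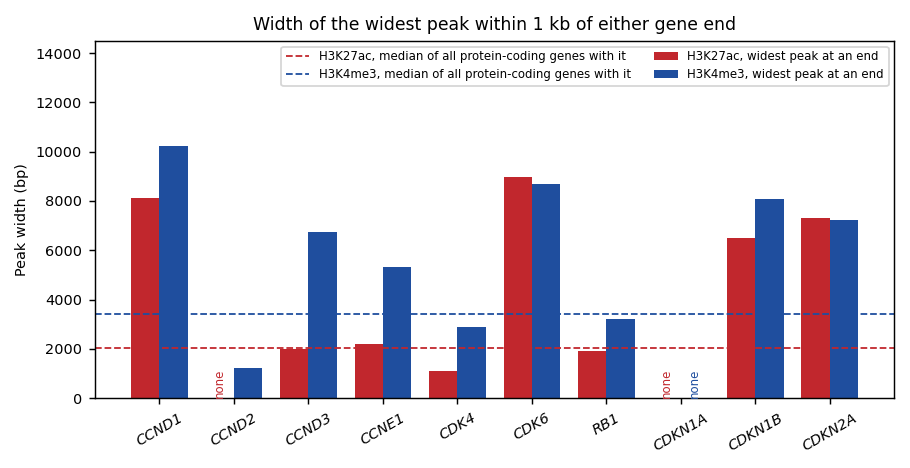
Width in bp of the widest H3K27ac (red) and H3K4me3 (blue) peak within 1 kb of either annotated end of each gene, with dashed lines at the medians of all protein-coding genes that have the mark, 2040 and 3415 bp. CCND1, CDK6, CDKN1B and CDKN2A stand far above both lines, CCND2 has no H3K27ac there, and CDKN1A has neither mark at its annotated ends.

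Inside the genes, 51 H3K27ac and 23 H3K4me3 peaks overlapped the 10 spans, 62.7% of the H3K27ac peaks in CDK6, which makes up 36.8% of the summed length. Every gene but CCND2 had an H3K27ac peak in its span (71.5% of all genes), and all 10 had H3K4me3 (74.5%). Of the span peaks 23 of the H3K27ac peaks and 19 of the H3K4me3 peaks overlapped the other mark. Away from the ends 40 H3K27ac and 13 H3K4me3 peaks lay inside the spans, and the like counts over all genes were not computed.

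Distal H3K27ac peaks numbered 87, of which 36 lay inside spans and 51 in flanks. All 10 genes had at least 1, as had 90.1% of all protein-coding genes, and 5 had at least 1 inside the span (39.8%). The median was 5.5 per gene against 4 over all protein-coding genes (interquartile range 2 to 8), and it was 4 over the 9 genes without CDK6. In the flanks alone the median was 3, as over all genes. The order by number ran from CDK6 with 32 through CDKN1A and CDKN2A with 13 each, CCND3 with 8, CDKN1B with 7 and RB1 with 4 to CCND2 and CCNE1 with 3 and CCND1 and CDK4 with 2. CCND1, CCND2, CCNE1 and CDK4 thus stood below the median, and the highest counts were at CDK6 and, in the flanks, at CDKN1A and CDKN2A. This order rests in part on weak peaks. With a score of at least 100 CDK6 had 9, CDKN2A 7, and CDKN1A and CCNE1 3 each. CCND1, CCND3 and CDKN1B had 2 each, and CCND2, CDK4 and RB1 had 0. The median over all genes at that score was not computed.

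**Figure D4:**
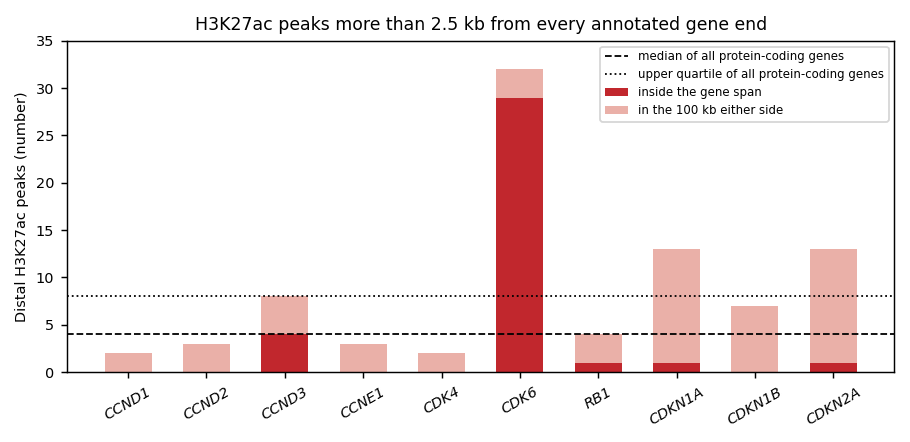
Number of distal H3K27ac peaks inside each gene span (dark red) and in the 100 kb either side (light red), with the median of 4 and the upper quartile of 8 over all protein-coding genes as dashed and dotted lines. CDK6 has 29 inside its span, while the 13 peaks of CDKN1A and of CDKN2A lie almost all in the flanks.

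Of the 87 distal peaks 23 overlapped H3K4me3 (26.4%, 17.6 to 37.0), against 18.4% of all distal H3K27ac peaks, which lies within the interval. Without CDK6, left out after the values were seen, the share was 18 of 55 (32.7%, 20.7 to 46.7). That interval lies above 18.4% but treats neighbouring peaks as independent, so no excess is read from it. With 50% of the H3K27ac peak covered, the share of the 87 was 13.8%. The peaks with H3K4me3 include the one at the second CCND3 start, since starts inside a span were not counted as ends. Scores of the 87 had a median of 59.6 against 51.8 over all distal peaks, and 28 scored at least 100 and 3 at least 1000. The shares of all distal peaks at these scores were not computed. The 3 were those described inside CDK6, beyond CCND3 and below CDKN1A, and all overlapped H3K4me3. The distal peaks with H3K4me3 had a median score of 90.9 and width of 1111 bp, against 51.6 and 763.5 bp for those without. Over all distal H3K27ac peaks the gap in score was larger, with medians of 292.88 with H3K4me3 and 45.79 without, so that the split is a feature of the whole list.

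Taking all 146 H3K27ac peaks in the spans and flanks, 64 (43.8%, 35.6 to 52.3) overlapped H3K4me3, against 34.8% of the whole list, and 56 of 71 H3K4me3 peaks (78.9%, 67.6 to 87.7) overlapped H3K27ac, against 71%. The windows were placed on genes and the whole list was not, and neighbouring peaks are not independent, so these shares are given as description. By gene the H3K27ac peaks with H3K4me3 ranged from 0 of 4 at CCND2 to 7 of 8 at CCND1, with 10 of 40 at CDK6.

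**Figure D5:**
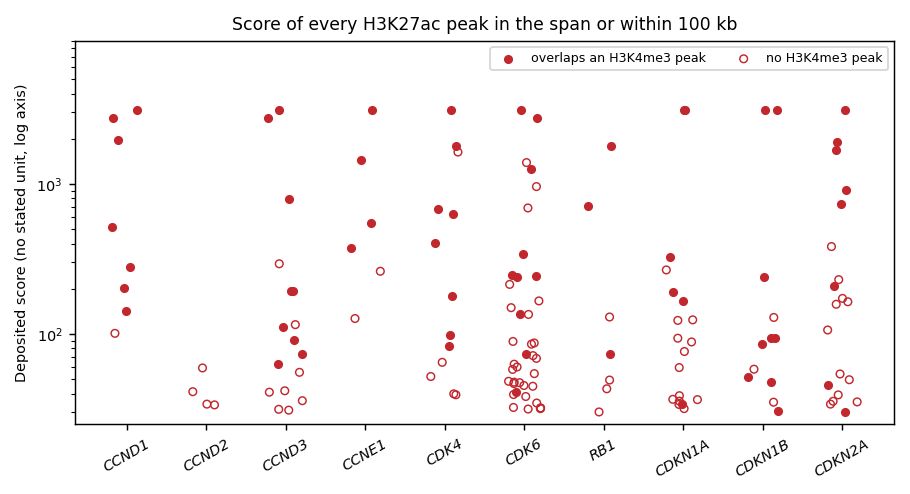
Deposited score (log axis, no stated unit) of each of the 146 H3K27ac peaks in the genes and the 100 kb either side, filled where the peak overlaps an H3K4me3 peak and open where it does not. Of 22 peaks with a score of at least 1000, 20 are filled, and the 4 CCND2 peaks, scoring 33.6 to 59.3, are all open. The share with H3K4me3 over all H3K27ac peaks scoring at least 1000 was not computed.

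The rest of the G1 pathway was described by a list of 36 other genes: cyclins E2 and A, CDK2 and its activators, RB1 relatives, E2F and DP factors, INK4 and KIP inhibitors, subunits of the DREAM complex and regulators of protein turnover. Both marks were at an end in 34 of the 36 (94.4%, 81.3 to 99.3), against 57.6% of all protein-coding genes. CCNA1, encoding a cyclin A known mainly from the germ line, and CDKN1C, the gene of the inhibitor p57, had H3K4me3 only, 2300 and 3156 bp wide. The widest H3K4me3 peaks were at CKS1B, encoding a kinase subunit that helps to degrade p27 (7311 bp), at the INK4 inhibitor genes CDKN2D (7194 bp) and CDKN2B (6855 bp), and at E2F2 (6810 bp). The H3K27ac width of the 34 had a median of 2004.5 bp, near the 2040 bp of all genes, while the median of the 10 genes was 4334.5 bp over 8, a difference that was not tested. The median number of distal H3K27ac peaks was 6.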

How the data were processed

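The authors deposited 1 peak list per mark, with the position and a score of each peak. Reads were aligned with Bowtie2 to hg38 and peaks called with MACS 1.4, per the submitters' processing notes; versions and parameters beyond that are not given in the sources used here. Chromatin was cut, per the labels' protocols, by sonication and micrococcal nuclease, so that peak edges and gaps depend on digestion and on how the caller joined peaks. The deposited score has no stated unit and is used only within a list. Read depth, local copy number and signal tracks were not analysed here.

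Only chromosomes 1 to 22 and X were kept, with positions counted from 1. Gene spans were those of RefSeq on GRCh38.p14, and strands, starts and sequences from its promoter table, which covers 250 bases before to 50 after a start; only the 250 were used. A mark was at a gene end where 1 bp or more of a peak fell in the 1 kb on each side of it. Windows were the span and 100 kb either side, and peaks crossing the edge were counted whole. Distal peaks were over 2.5 kb from each end of 59098 coding and noncoding genes. Starts inside a span were not counted as ends. Percentiles count ties by their midpoint. Intervals are exact Clopper-Pearson at 95%. They cover counting error only and treat neighbours as independent. No test was run, since each mark had 1 library.

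The genes and lists were chosen with earlier results of these data known. The genes named were the 10, the pathway genes without both marks and the 4 with the widest H3K4me3. Named as well were up to 3 distal peaks per gene by score and a near gene with a marked end on each side. That gene was not always the nearest, since TSPAN31 and CDKN2A-AS1 had nearer marked ends. Other neighbours were named after their values were seen. Gene end calls were tested on simulated data, where 200 of 200 planted genes were recovered. Python 3.11.15, numpy 2.4.6, pandas 2.3.3, scipy 1.17.1 and matplotlib 3.10.9 were used.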

Additional observations from a re-analysis of the deposited data

How the results depend on the processing

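Of 33 recomputed values 26 stayed within 1.5 times the main count or width, or within the interval of the share, and 7 did not. With a score of at least 100, H3K27ac peaks in the spans numbered 25 instead of 51 and distal H3K27ac peaks 28 instead of 87, since most weak peaks leave the list. Merging peaks less than 500 bp apart raised the median H3K27ac width at the ends to 8352.5 bp. Without CDK6 there were 19 H3K27ac and 15 H3K4me3 peaks in the spans and 55 distal peaks. With 50% of the H3K27ac peak covered, 13.8% of distal peaks overlapped H3K4me3. The number of genes with both marks was 7 by listed starts, with CCND1 and CCND2, which have none, kept by their annotated ends, and RB1 had neither mark at its listed start. It was 9 with a window of 2.5 kb, where CCND2 had both and CDKN1A H3K4me3 only, 9 where peaks anywhere in the gene counted as well, and 8 under the other settings run. Counting listed starts as gene ends left 82 distal peaks. The comparison without CDK6, the listed starts, a score of at least 50 and any peak in the span were chosen after seeing the data. The planned count by starts of every gene was not run, because 2 genes had no listed start. No paired analysis was possible because each mark had 1 library. Read depth is unknown here and limits what an absent peak can show.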

Other observations

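Among the 36 other pathway genes, chosen here after their values were seen, CABLES1, encoding a protein that links cyclin-dependent kinases to other kinases, had 27 distal H3K27ac peaks in its span or within 100 kb, 15 of them in the span, and AMBRA1, encoding a factor that targets D-type cyclins for degradation, had 21, 10 of them in the span. E2F2 had 18, all in the flanks, and 8456 bp of H3K27ac at an end with a score of 3100. CKS1B had 8725 bp of H3K27ac at an end, also with a score of 3100. LIN52, a DREAM complex gene, had the lowest H3K27ac score at an end of the 34 pathway genes with that mark, 40.7 in a peak of 542 bp, beside H3K4me3 with a score of 3100.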
